A study of Mus musculus with 12 samples.

Results

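Clones 2.5 and 2.4 of one foliate papilla organoid line were compared gene by gene. Both carry the label Foxe1 knock-out, and each was sequenced in duplicate, so that 4 libraries enter the comparison. The genes described are the 15691 of the 55367 in the deposited table that reached 10 or more counts in at least 2 of those 4 libraries. The series holds 12 libraries of mouse tongue organoids: the FoP line, from foliate papillae, and the CVP line, from circumvallate papillae, each with a wild type culture and 2 knock-out clones in duplicate. The clones of the CVP line are 2.9 and 2.10. Treatment is given as genetic modification for the clones and as not applicable for the wild type cultures, and the labels name no Cre, promoter, guide or kind of lesion, no age and no strain. Each clone is a single clone and no wild type culture is labelled as a clone, so the loss of Foxe1 and the derivation of a clone cannot be told apart. The labels do not say whether the duplicates came from separate cultures, and p-values measure only the spread between these libraries.

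Tongue papilla organoids are balls of epithelial cells grown from stem cells, which can form lining keratinocytes, taste cells and cells of the minor salivary glands whose ducts open at the papillae. Foxe1 belongs to the forkhead family of transcription factors and is needed for the thyroid and palate to form. A clonal culture grows from a single cell and so samples 1 cell of the line it came from.

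The 4 clone libraries held totals of 59260916 to 65582540 counts and 21421 to 21884 genes with a count, with 0.589% to 0.740% of counts from mitochondrial genes. Levels are given as CPM, a gene's counts relative to the library total after TMM scaling. The epithelial label held: the surface marker Epcam stood at 1239 and 1280 CPM in clone 2.4 and at 1430 and 1378 CPM in clone 2.5, and the basal keratin Krt5 at 4942, 4909, 5690 and 6259 CPM in the same order (both genes were picked for this check). Markers of other cells were in part at 0 in all 4 clone libraries: 8 of 17 for immune cells (among them Ptprc, Csf1r, Cd3e and Ms4a1), 2 of 9 for endothelium (Cdh5 and Cldn5), 2 of 15 for fibroblasts (Lum and Dpt), 2 of 9 for nerve and glia (among them Sox10) and 3 of 10 for skeletal muscle (among them Myod1 and Myog). Others were present: 4 immune, 4 endothelial, 8 fibroblast, 6 nerve and glia and 1 muscle marker reached the filter. The endothelial markers summed to 32.03 and 29.4 CPM in clone 2.4 and 5.91 and 4.75 CPM in clone 2.5. Only Eng was lower among the 4 tested (log2 -3.71), and the other 3 had a fold above 1. The immune markers summed to 78.6 and 77.4 CPM and 112 and 113 CPM, and the fibroblast sum is given with the matrix genes. In bulk RNA, fewer cells of a kind and less RNA per cell cannot be told apart.

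Foxe1, the gene named in the genotype (ENSMUSG00000070990, chr4:46343609-46346412 on the + strand, GRCm38), was transcribed in both clones. Clone 2.4 gave 22.3 and 20.0 CPM and clone 2.5 gave 11.2 and 11.4 CPM, beside 16.3 and 16.0 CPM in FoP wild type. Both libraries of clone 2.5 lay below both wild type libraries, and both of clone 2.4 lay above them. The difference between the clones was log2 -0.90 ± 0.10 (standard error; edgeR quasi-likelihood test, adjusted p = 4.09e-05). In the CVP line, clone 2.10 against clone 2.9 gave log2 -1.56 ± 0.10 (adjusted p = 1.89e-07). The transcript level checks neither the lesion nor the protein, since the labels do not say what was altered. The predicted gene Gm12446 overlaps Foxe1 on the opposite strand.

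Between the clones, 1262 genes passed an adjusted p of 0.05, 8.04% of those tested; 616 were higher in clone 2.5 (3.93%) and 646 were lower (4.12%). Most of these differences were small: 824 of the 1262 (65.3%) were under 2-fold, 212 were over 2-fold higher and 226 over 2-fold lower, and 96 and 91 were over 4-fold higher and lower. The median size of a called difference was 0.62 on the log2 scale, against 0.14 over all genes tested. Before adjustment, 3525 genes had a p under 0.05. Each called gene had both libraries of one clone beyond both libraries of the other, which held for 8691 genes in all, or 55.4%. With one library left out, the count of called genes was 519 without clone 2.4 duplicate 1, 667 without clone 2.4 duplicate 2, 653 without clone 2.5 duplicate 1 and 513 without clone 2.5 duplicate 2. The contrast of each clone with FoP wild type, made in the same fit, gave 5497 called genes for clone 2.4 (35.0%) and 5837 for clone 2.5 (37.2%); these contrasts share the wild type libraries. Without clone 2.4 duplicate 1 the first of these counts was 3577.

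Duplicates were closer than clones. Over the 12398 genes with a mean log2 CPM of 0 or more, the median absolute log2 difference was 0.079 between the duplicates of clone 2.4 and 0.080 between those of clone 2.5. It was 0.115 to 0.128 for the 4 pairings of a clone 2.5 with a clone 2.4 library. Of the genes tested, 14239 reached 10 counts in all 4 libraries and held 1139 of the calls. A further 150 genes entered only through clone 2.5 and 256 only through clone 2.4, with 48 and 42 calls, and had to differ to enter in this way. The other 1046 genes, with 33 calls, reached 10 counts in 2 or 3 libraries spread over both clones. Protein-coding genes made up 1139 of the calls (of 12942 tested), and 109 calls were predicted genes, which are counted and not named.

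**Figure D1:**
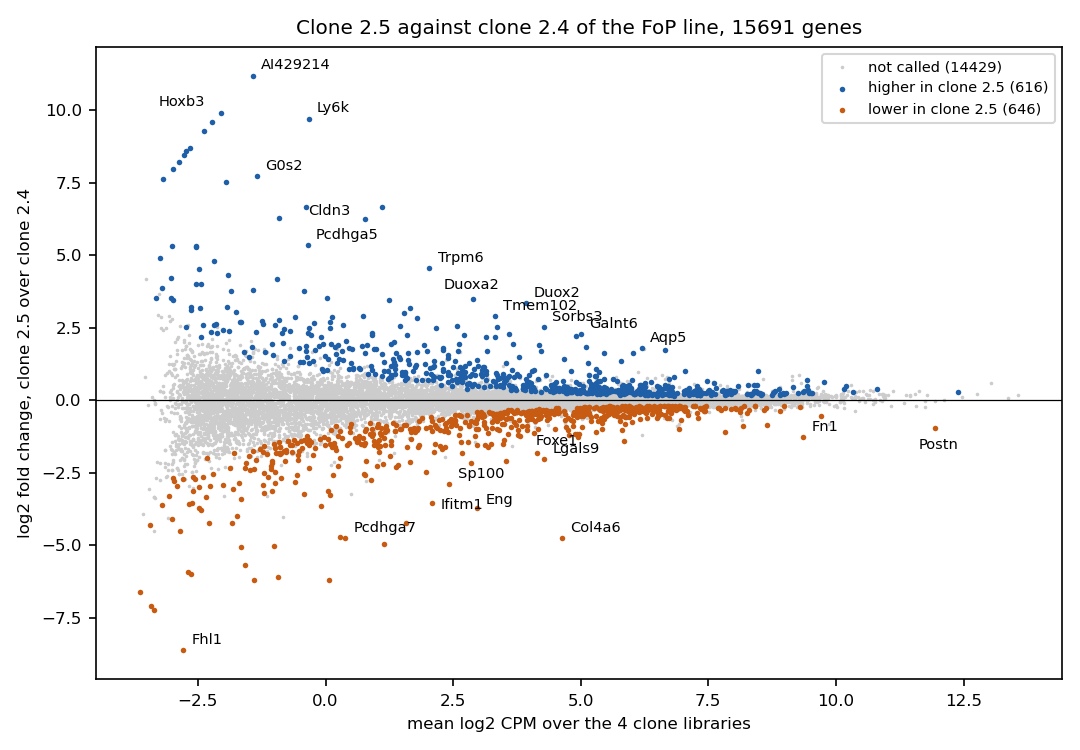
Log2 fold change of clone 2.5 over clone 2.4 (vertical) against the mean log2 CPM of the 4 clone libraries (horizontal) for 15691 genes; coloured points are the 616 called higher and 646 called lower genes, grey points the rest. Genes with changes of several log2 units lie mainly at low and middle levels, with Col4a6 the outlying low point at a mean log2 CPM of 4.63.

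The stretch of DNA before the start is shown here for 4 of the genes described below. Cldn3 was close to silent in clone 2.4, and Duoxa2 has a neighbour, Duox2, that moved with it. Col4a6 has a neighbour, Col4a5, that did not move, and Tmem102 has one, Fgf11, that moved the other way. Each sequence is the 250 bases before the annotated start in RefSeq on GRCm38.p6, given 5′ to 3′ on the gene's strand, with every CG pair in capitals, the pair at which mammalian DNA is methylated. The genes were chosen as ones whose windows overlap no exon of GENCODE M21, and no methylation was measured here.
Cldn3: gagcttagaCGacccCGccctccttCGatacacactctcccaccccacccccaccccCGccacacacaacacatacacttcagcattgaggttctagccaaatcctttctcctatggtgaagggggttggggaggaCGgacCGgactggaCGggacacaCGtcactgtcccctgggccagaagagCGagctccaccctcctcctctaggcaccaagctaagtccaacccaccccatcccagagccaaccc
Duoxa2: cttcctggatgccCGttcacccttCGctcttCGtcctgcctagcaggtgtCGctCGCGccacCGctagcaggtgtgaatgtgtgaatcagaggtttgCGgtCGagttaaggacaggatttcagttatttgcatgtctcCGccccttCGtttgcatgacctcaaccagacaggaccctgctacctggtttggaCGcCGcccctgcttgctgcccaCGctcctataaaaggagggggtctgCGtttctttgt
Col4a6: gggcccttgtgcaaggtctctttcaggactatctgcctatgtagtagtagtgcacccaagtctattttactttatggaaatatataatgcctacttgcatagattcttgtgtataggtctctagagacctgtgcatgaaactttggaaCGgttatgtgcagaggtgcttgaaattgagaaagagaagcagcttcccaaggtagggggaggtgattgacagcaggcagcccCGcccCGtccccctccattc
Tmem102: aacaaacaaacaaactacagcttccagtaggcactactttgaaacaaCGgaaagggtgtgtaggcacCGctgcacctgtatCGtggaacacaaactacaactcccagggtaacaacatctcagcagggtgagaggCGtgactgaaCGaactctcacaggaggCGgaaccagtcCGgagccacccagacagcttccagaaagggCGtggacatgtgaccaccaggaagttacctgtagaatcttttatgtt
The windows are chr5:134985964-134986213 (+ strand) for Cldn3, chr2:122298650-122298899 (+) for Duoxa2, chrX:141474077-141474326 (−) for Col4a6 and chr11:69805625-69805874 (−) for Tmem102. They hold 9, 15, 3 and 8 CG pairs. Over 20504 RefSeq promoters matched by symbol, the median was 8; 48.8% held at least as many as Cldn3, 33.4% as Duoxa2, 74.6% as Col4a6 and 51.4% as Tmem102. The forkhead core GTAAACA, searched on both strands (the other strand reads TGTTTAC), was in 0 of these 4 windows and in 2.7% of all 20504.

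Cldn3 (chr5:134986214-134987472 on the + strand), a tight junction claudin of simple and glandular epithelium, was close to silent in clone 2.4. That clone gave 0.121 and 0.247 CPM and clone 2.5 gave 13.5 and 14.6 CPM, while FoP wild type gave 101 and 105 CPM. Both clones lay far below wild type, clone 2.4 close to 0. The difference was log2 6.24 ± 0.15 (edgeR, adjusted p = 6.56e-12). Its neighbour Cldn4 stood at 178 and 225 CPM in clone 2.4 and 250 and 294 CPM in clone 2.5 (log2 0.43 ± 0.22, adjusted p = 0.318). Among 12 claudins tested, Cldn10 was also higher in clone 2.5 (log2 1.70 ± 0.18) and Cldn8 lower (log2 -1.58 ± 0.19). The share of claudins called was 25%, beside 8.04% of all genes. Dmrta2, a zinc finger transcription factor that was picked after its values were seen, went from 0.152 and 0.247 CPM in clone 2.4 to 20.2 and 20.8 CPM in clone 2.5, with 8.43 and 9.15 CPM in wild type.

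Genes of the Hoxb cluster on chromosome 11 were silent or close to silent in clone 2.4. Hox genes code for homeodomain transcription factors that mark position along the body axis. Hoxb3 had 0 counts in both libraries of clone 2.4 and 1.79 and 1.93 CPM in clone 2.5, beside 1.75 and 1.91 CPM in wild type. Hoxb2 had 0 and 0.0155 CPM in clone 2.4, 1.78 and 1.72 CPM in clone 2.5 and 3.30 and 2.34 CPM in wild type. For these 2 genes clone 2.5 overlapped or lay below wild type, and clone 2.4 stood apart from both. Summed over both libraries, Hoxb3 was at least 80.8-fold higher in clone 2.5, with 3 counts over the 2 libraries of clone 2.4 as the floor. Hoxb2 was 228-fold higher (95% counting interval 40.6 to 9060). Such intervals and floors cover counting error only and treat counts as independent. Low counts of 2 and 4 were over-represented, so the intervals may be too narrow and the floors too high. Of 39 Hox genes in the table only these and Hoxb9 reached the filter, and the 3 were called higher in clone 2.5. All 3 reached it through clone 2.5 alone, so that their direction was fixed by the filter and is no result about the Hox genes as a group. Hoxb9 was low, at 0.0152 and 0 CPM in clone 2.4 and 0.317 and 0.451 CPM in clone 2.5; wild type, at 0 and 0.129 CPM, overlapped clone 2.4. Leaving out any one of the 4 libraries ended the call of Hoxb9 (adjusted p 0.0631 to 0.165). Hoxb3os, which overlaps Hoxb3 and Hoxb2 on the opposite strand, moved with them (log2 8.59 ± 0.92), and reads of overlapping genes may not be told apart. Hoxb3os too passed the filter through clone 2.5 alone.

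Of the genes tested, 27 had at most 3 counts in clone 2.4, Hoxb3 and Hoxb2 among them. Such genes can pass the filter only through clone 2.5 and had to differ, so that the 23 called are a description; by a rule of highest CPM 6 are named. Ly6k, a membrane-anchored protein of the Ly6 family, had 0 and 0.0309 CPM in clone 2.4 and 14.8 and 14.1 CPM in clone 2.5; wild type was also low, at 0.247 and 0.210 CPM. Here clone 2.5 was the culture that stood apart, 944-fold above clone 2.4 (261 to 7800). G0s2, an inhibitor of triglyceride breakdown, had 0.0303 and 0 CPM in clone 2.4, 2.70 and 4.60 CPM in clone 2.5 and 1.98 and 1.16 CPM in wild type. Its neighbour Hsd11b1, the enzyme that regenerates active glucocorticoid, was higher in clone 2.5 too (log2 2.56 ± 0.21, adjusted p = 3.60e-06). AI429214 had 0 counts in clone 2.4 and 4.41 and 4.54 CPM in clone 2.5, at least 195-fold higher. Rps4l, a ribosomal protein gene with close copies whose reads may be shared, had 0 counts in clone 2.4 and was at least 52.0-fold higher. It lies within Tmtc1, on the opposite strand.

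Duox2, Duoxa2 and Pigr, which act in defence at epithelial surfaces, were higher in clone 2.5. Duox2, an oxidase that releases hydrogen peroxide at the cell surface, gave 4.62 and 4.93 CPM in clone 2.4 and 58.4 and 38.9 CPM in clone 2.5, beside 24.3 and 25.9 CPM in wild type. Duoxa2, the factor that brings Duox2 to the surface, gave 2.41 and 2.01 CPM in clone 2.4, 28.6 and 21.03 CPM in clone 2.5 and 8.01 and 8.50 CPM in wild type. The wild type libraries lay between the clones for both genes. The fold changes were log2 3.35 ± 0.34 for Duox2 (adjusted p = 0.00145) and 3.49 ± 0.23 for Duoxa2 (adjusted p = 2.17e-06). The annotated starts of this head-to-head pair are 673 bases apart on chromosome 2. The second pair of the locus, Duox1 and Duoxa1, did not pass the test (log2 -0.10 ± 0.07 and 0.15 ± 0.06), and Duoxa1 overlaps Duoxa2 on the opposite strand. Pigr, the receptor that carries IgA through epithelium into saliva, gave 4.75 and 3.94 CPM in clone 2.4 against 30.0 and 19.9 CPM in clone 2.5 (log2 2.52 ± 0.30, adjusted p = 0.00286), with 18.0 and 24.3 CPM in wild type.

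Trpm6, a magnesium channel fused to a kinase, gave 0.728 and 0.927 CPM in clone 2.4 and 21.6 and 17.7 CPM in clone 2.5, beside 42.3 and 46.9 CPM in wild type. Its log2 fold change of 4.57 ± 0.36 (adjusted p = 0.000217) was the largest increase among genes of a mean log2 CPM of 2 or more. Tmem102 gave 3.47 and 3.77 CPM in clone 2.4 and 26.6 and 27.5 CPM in clone 2.5 (log2 2.90 ± 0.09, adjusted p = 1.13e-10). Wild type, at 24.03 and 24.13 CPM, was close to clone 2.5. Sorbs3, a focal adhesion adaptor, gave 8.98 and 7.15 CPM against 47.3 and 46.0 CPM, with wild type at 53.4 and 52.0 CPM. Galnt6, which starts O-linked sugar chains on mucins, gave 15.6 and 13.3 CPM against 70.0 and 72.3 CPM, with wild type at 58.5 and 66.3 CPM. For both genes clone 2.4 was the low culture (log2 2.53 ± 0.11 and 2.30 ± 0.09; adjusted p = 3.32e-09 for each).

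The rest of the genes with the largest increases followed 2 patterns. Eid2, an inhibitor of transcription coactivators, and Ecscr, a membrane protein known from endothelium, were low in clone 2.4, at 1.64 and 2.12 CPM and at 2.58 and 3.38 CPM. In clone 2.5 they stood at 10.4 and 10.8 CPM and at 14.8 and 13.8 CPM, near wild type values of 7.87 and 8.53 CPM and of 19.4 and 20.8 CPM. Spock2, a matrix proteoglycan, was instead high in clone 2.5, at 66.8 and 62.3 CPM, against 14.5 and 13.4 CPM in clone 2.4 and 20.4 and 18.8 CPM in wild type. Krt13, a keratin of the soft lining of the mouth, gave 4.55 and 6.47 CPM in clone 2.4 and 25.7 and 27.8 CPM in clone 2.5 (log2 2.28 ± 0.46, adjusted p = 0.0326). This last call was lost when only the 6 FoP libraries were fitted (adjusted p = 0.0515) and with the duplicate number as a block (adjusted p = 0.0532). The call was lost with any one library left out for Krt13 (adjusted p 0.0949 to 0.179). Sorbs3, Galnt6 and Ecscr each overlap a gene on the opposite strand.

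**Figure D2:**
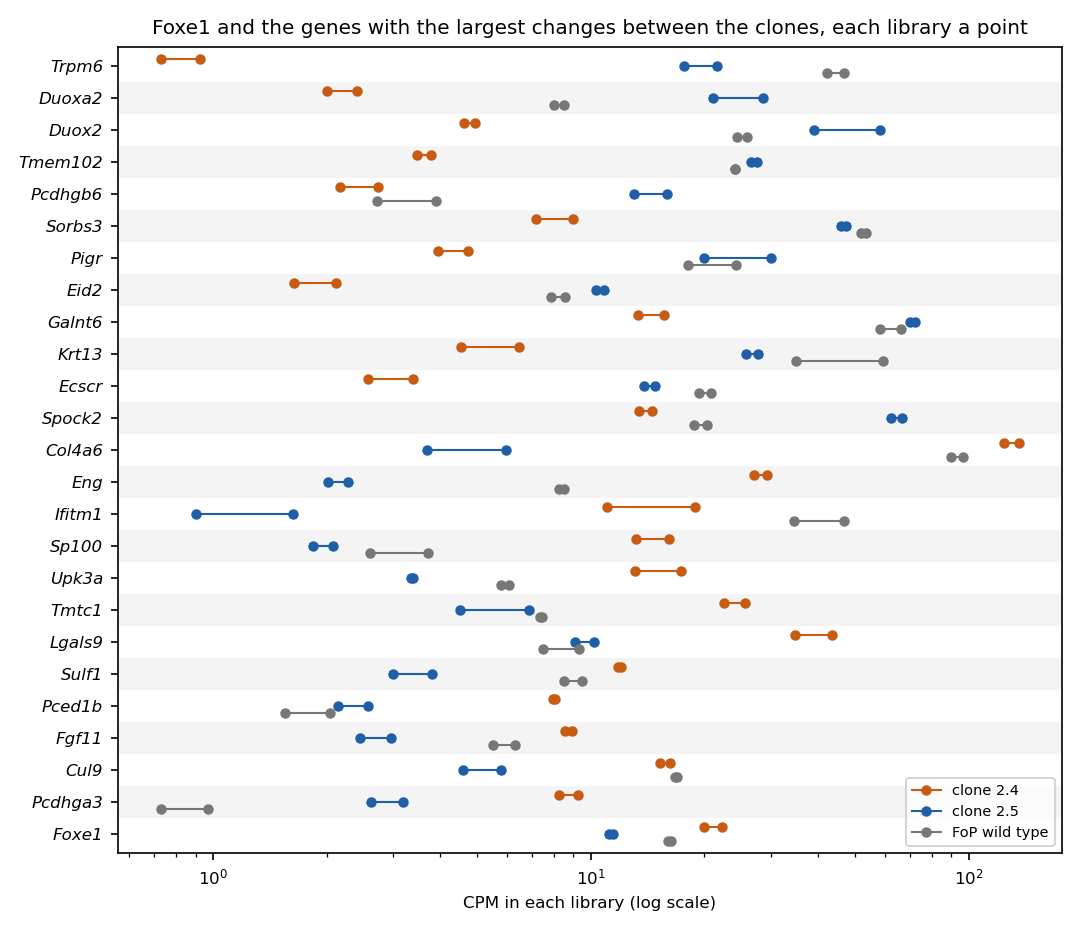
CPM in each library on a log scale (horizontal) for Foxe1 and the 24 genes with the largest called changes at a mean log2 CPM of 2 or more (rows); a line joins the duplicates of a culture. Clone 2.4 and clone 2.5 do not overlap in any row, and the wild type points lie now by one clone, now by the other, now between or beyond them, as for Ifitm1 at 34.4 and 46.7 CPM.

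Col4a6 and Eng had the largest decreases among genes of a mean log2 CPM of 2 or more. Col4a6 (chrX:141165403-141474076 on the − strand), a chain of the type IV collagen network of basement membranes, gave 136 and 124 CPM in clone 2.4 and 5.96 and 3.69 CPM in clone 2.5, beside 96.9 and 89.8 CPM in wild type. The difference was log2 -4.74 ± 0.16 (adjusted p = 2.26e-07). Col4a5 starts 1343 bases away on the other strand and codes for the chain that joins Col4a6 in that network; it stood at 265, 264, 265 and 248 CPM in the 4 clone libraries (log2 -0.05 ± 0.07, adjusted p = 0.743). Eng, a co-receptor for TGF-beta known as an endothelial marker, gave 29.2 and 27.1 CPM in clone 2.4, 2.28 and 2.01 CPM in clone 2.5 and 8.48 and 8.23 CPM in wild type (log2 -3.71 ± 0.14, adjusted p = 1.11e-09). It overlaps Fpgs on the opposite strand. The defining endothelial markers Cdh5 and Cldn5 were at 0, and Pecam1 was not lower in clone 2.5 (1.99, 1.67, 2.69 and 1.80 CPM).

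Ifitm1, Sp100 and Lgals9 have parts in defence and immune signalling. Ifitm1, a membrane protein that hinders virus entry, gave 18.9 and 11.0 CPM in clone 2.4, 1.63 and 0.902 CPM in clone 2.5 and 34.4 and 46.7 CPM in wild type (log2 -3.54 ± 0.46, adjusted p = 0.00565). Its neighbours Ifitm2 and Ifitm3 did not pass (log2 0.02 ± 0.13 and 0.05 ± 0.09). Sp100, a protein of nuclear bodies, gave 16.1 and 13.2 CPM in clone 2.4 against 2.08 and 1.84 CPM in clone 2.5, and wild type was as low, at 2.60 and 3.70 CPM. Lgals9, a galectin, gave 43.6 and 34.8 CPM against 9.07 and 10.2 CPM, again with wild type near clone 2.5, at 9.31 and 7.47 CPM. For both genes clone 2.4 was the high culture (log2 -2.9 ± 0.31 and -2.02 ± 0.20; adjusted p = 0.000273 and 0.000432).

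Sulf1, Cul9, Upk3a, Tmtc1, Fgf11 and Pced1b were also lower in clone 2.5. Sulf1, which trims sulfate from heparan sulfate, gave 11.8 and 11.99 CPM in clone 2.4 and 3.81 and 3.0 CPM in clone 2.5, and Cul9, a cullin, gave 16.3 and 15.2 CPM and 5.77 and 4.60 CPM. Wild type lay nearer to clone 2.4 for both, at 8.52 and 9.49 CPM for Sulf1 and 16.9 and 16.8 CPM for Cul9. Upk3a, a uroplakin, was at 17.4 and 13.1 CPM in clone 2.4 and at 3.39 and 3.35 CPM in clone 2.5, and Tmtc1, an enzyme of the endoplasmic reticulum, at 25.6 and 22.6 CPM and at 4.52 and 6.87 CPM. For these 2 genes clone 2.4 stood above wild type, at 5.77 and 6.08 CPM for Upk3a and 7.36 and 7.45 CPM for Tmtc1. Fgf11, an intracellular member of the FGF family, gave 8.55 and 8.90 CPM in clone 2.4 and 2.46 and 2.97 CPM in clone 2.5 (log2 -1.69 ± 0.16, adjusted p = 1.77e-05). It lies 1.7 kb from Tmem102, on the same strand, and the pair moved in opposite directions. Pced1b (log2 -1.76 ± 0.17) overlaps Amigo2, an adhesion protein gene, on the opposite strand; Amigo2 was lower as well (log2 -2.56 ± 0.28).

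In clone 2.5, 20 of the genes tested had at most 3 counts. They passed the filter only through clone 2.4, and 11 were called. Xlr3b had 0.773 and 0.525 CPM in clone 2.4 and 0 and 0.0173 CPM in clone 2.5, 78.5-fold lower (13.7 to 3140); it belongs to a family of near-identical X-linked genes, so that its reads may be shared. Fhl1, a LIM domain protein of muscle, had 0.364 and 1.14 CPM in clone 2.4 and 0 counts in clone 2.5, at least 30.2-fold lower. The matrix gene Nid2 and the surface gene Thy1 were at 0.278 CPM or less and at 0.309 CPM or less in each clone 2.4 library. Klk7, a protease of cornified skin (at least 10.5-fold lower), and St6galnac3, a sialyltransferase (24-fold, 3.95 to 985), were as low. These 6 genes were at 1.14 CPM or less in every library of both clones, unlike Ly6k or AI429214 on the other side. Among genes picked after their values were seen, the protease gene Capn11 was at 7.84 and 8.06 CPM in clone 2.4 and 0.0951 and 0.121 CPM in clone 2.5, with 5.90 and 6.11 CPM in wild type. Cspg4, a membrane proteoglycan, was at 2.23 and 2.84 CPM against 0 and 0.0693 CPM, with 16.5 and 13.96 CPM in wild type. Capn11 and Cspg4 also passed the filter only through clone 2.4. Each of the 4 leave-outs ended the call of Fhl1, Thy1, Klk7 and St6galnac3 (adjusted p 0.0531 to 0.252). Nid2 lost the call without clone 2.4 duplicate 2 or clone 2.5 duplicate 1 or clone 2.5 duplicate 2 (adjusted p 0.127 to 0.142) and by limma voom (0.0515). Fhl1 also lost it with halved counts (adjusted p = 0.0511), and Thy1 with another filter (0.0614) and with the duplicate number as a block (0.0514).

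The clustered protocadherins differed between the clones more often than any other list examined with at least 4 tested members. These cadherin-like adhesion proteins are encoded by a cluster of genes on chromosome 18. The genes whose names begin with Pcdhg form arrays of first exons, each with its own promoter. A cell uses a few genes of the cluster, so that cells carry different combinations. Of the 57 such genes 39 were tested, and 16 were higher and 10 lower in clone 2.5, 66.7% of those tested beside 8.04% of all genes. The Pcdhga7 gene gave 7.57 and 6.16 CPM in clone 2.4 and 0.381 and 0.121 CPM in clone 2.5 (log2 -4.74 ± 0.34, adjusted p = 1.14e-06). Pcdhga5 gave 0.121 and 0.0927 CPM in clone 2.4 and 4.74 and 4.21 CPM in clone 2.5 (log2 5.36, adjusted p = 2.64e-08). These 2 genes moved in opposite directions, with Pcdhga6 between them in the cluster (log2 -0.44, adjusted p = 0.103). Wild type was at 2.41 and 1.89 CPM for Pcdhga5 and 4.84 and 5.04 CPM for Pcdhga7. Pcdhga5 stayed under 10 counts in both clone 2.4 libraries, so it passed the filter only through clone 2.5 and its direction was fixed. Pcdhga11, among the 10 lower genes, likewise passed only through clone 2.4. Pcdhgb6 gave 2.17 and 2.73 CPM in clone 2.4 and 15.9 and 13.04 CPM in clone 2.5 (log2 2.56 ± 0.19), while Pcdhga3 gave 8.26 and 9.25 CPM and 3.19 and 2.62 CPM (log2 -1.59 ± 0.20).

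By group, 7 of 20 Pcdhb genes were higher and 6 lower, 4 of 10 Pcdhga genes were higher and 4 lower, 5 of 6 Pcdhgb genes were higher and 0 lower, and 0 of 3 Pcdhgc genes passed in either direction (edgeR; also 0 at an unadjusted p under 0.05, by the DESeq2 Wald test and by limma voom). None of the Pcdha genes was tested. Without clone 2.5 duplicate 1 the list held 13 higher and 6 lower, and the other leave-outs gave 12 or 13 higher and 7 to 9 lower. Among Pcdhb genes, Pcdhb4 was lower in clone 2.5 (3.20 and 3.14 CPM against 0.381 and 0.277 CPM) and Pcdhb14 higher (4.56 and 4.94 CPM against 12.7 and 12.5 CPM). Pcdhgc3, at the end of the cluster, gave 70.5 and 64.8 CPM in clone 2.4 and 63.9 and 60.4 CPM in clone 2.5 (log2 -0.12, adjusted p = 0.353). Summed over the tested genes, Pcdhb levels were 61.7 and 59.1 CPM in clone 2.4 and 74.7 and 69.4 CPM in clone 2.5, Pcdhga levels 30.0 and 29.8 CPM and 24 and 21.2 CPM, and Pcdhgb levels 10.2 and 9.95 CPM and 36.7 and 31.7 CPM. The Pcdhg genes share their last exons and overlap in the annotation, so counts of single Pcdhg genes depend on how shared reads were assigned. Pcdhb genes are near-identical copies of one another in part.

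**Figure D3:**
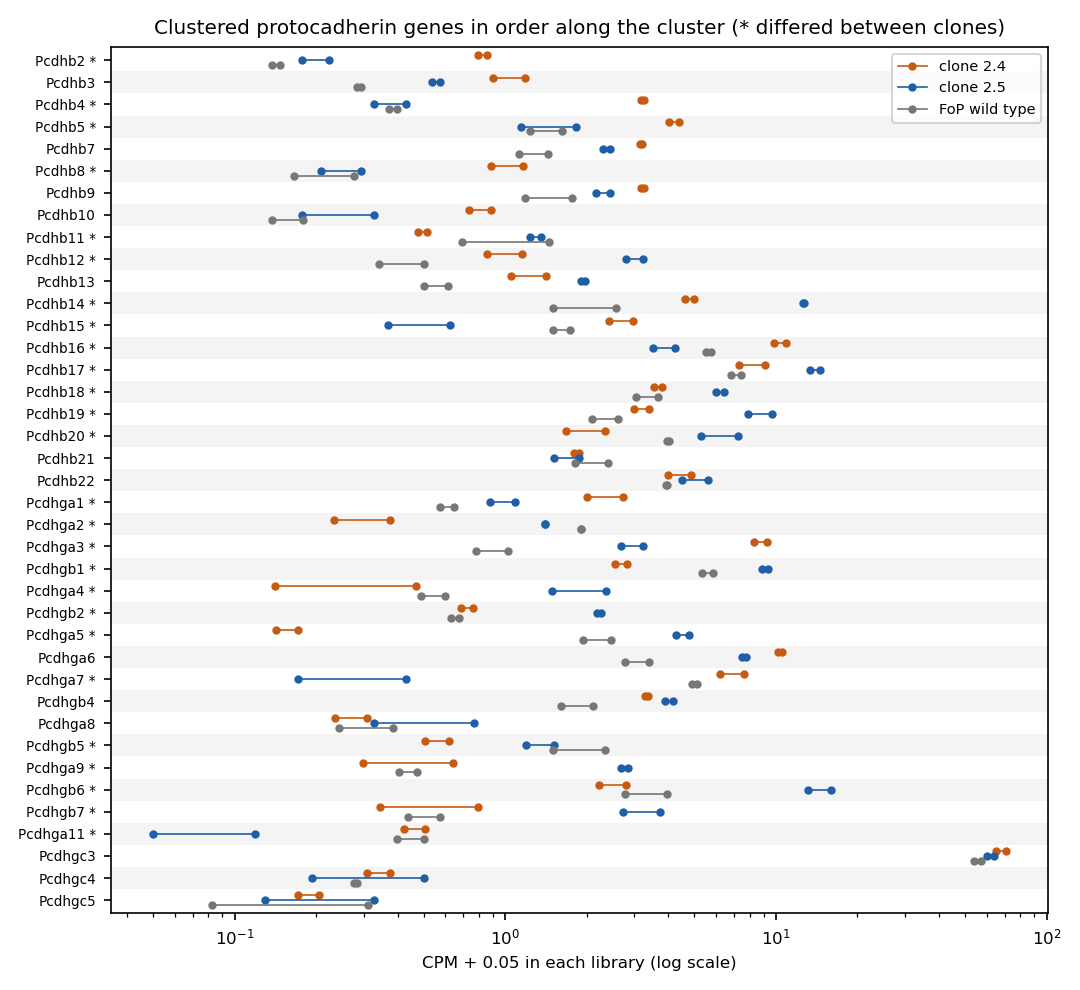
CPM plus 0.05 in each library on a log scale (horizontal) for the 39 tested clustered protocadherin genes in their order along the cluster (rows, top to bottom); a line joins duplicates and a star marks the 26 genes called between the clones. Duplicates lie close together while clone 2.5 lies above clone 2.4 for some genes and below it for others, and Pcdhgc3 is at 60.4 to 70.5 CPM in both.

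Gland, duct and saliva genes were called in both directions. The share called was 22.9% of gland regulators and transporters, 27.8% of simple and duct epithelium genes and 28% of saliva products, beside 8.04% of all genes. Of 35 tested gland regulators and transporters, 6 were higher and 2 lower, with a median log2 fold change of 0.10 beside 0.00 over all genes tested. The water channel Aqp5, which passes water into saliva, gave 40.1 and 38.7 CPM in clone 2.4 and 132 and 143 CPM in clone 2.5, beside 66.9 and 75.04 CPM in wild type (log2 1.80 ± 0.11, adjusted p = 2.56e-06). The muscarinic receptor Chrm3, which triggers saliva flow, gave 7.11 and 5.84 CPM and 12.02 and 12.12 CPM (log2 0.90 ± 0.13). Wild type was lower than both clones, at 3.49 and 3.48 CPM. Aqp3 was lower in clone 2.5 (log2 -0.72 ± 0.15). Of 18 simple and duct epithelium genes 4 were higher and 1 lower, among them Krt8 (log2 0.54 ± 0.07). Saliva products and mucins gave 4 higher and 3 lower of 25 tested, and 18 of the 50 looked for had 0 counts in all 4 libraries; without clone 2.4 duplicate 1 or clone 2.5 duplicate 1 the list had 1 higher and 2 lower, without clone 2.4 duplicate 2 it had 2 and 3, and without clone 2.5 duplicate 2 it had 3 and 2. The antimicrobial protein Ltf, the main product by level, was at 10470 and 10130 CPM in clone 2.4 and 11930 and 10010 CPM in clone 2.5, which overlap (adjusted p = 0.755). The gland list had 3 higher and 0 lower without clone 2.4 duplicate 1, 5 and 0 without its duplicate 2, 2 and 0 without clone 2.5 duplicate 1 and 3 and 1 without its duplicate 2. Aqp3 lost the call without clone 2.4 duplicate 1 or clone 2.4 duplicate 2 or clone 2.5 duplicate 1 (adjusted p 0.0604 to 0.142), and with only the 4 clone libraries in the fit (adjusted p = 0.0844).

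Among markers of stem and lining cells the share called was 10% and 11.8%, beside 8.04% of all genes, with Krt13 and Klk7 the largest differences. Of 30 basal and stem genes 3 were higher (Krt5, Itga3 and Ccnd1, log2 0.28 ± 0.08, 0.22 ± 0.05 and 0.27 ± 0.08) and 0 lower, and 1 was higher with the duplicate number as a block. Lgr5, a stem cell receptor, was at 1.91 and 1.99 CPM in clone 2.4 and 1.06 and 1.11 CPM in clone 2.5 and did not pass (log2 -0.84 ± 0.28, adjusted p = 0.0898). FoP wild type was below both clones for Lgr5, at 0.407 and 0.517 CPM. Of 51 keratinocyte genes 41 had a fold above 1, and 4 were called higher and 2 lower, with a median of 0.17. Krt13 was the highest (log2 2.28) and Klk7, at 0 counts in clone 2.5, the lowest. Leaving out clone 2.4 duplicate 1 or clone 2.5 duplicate 2 ended all 6 calls; without clone 2.4 duplicate 2, 3 were higher and 0 lower, and without clone 2.5 duplicate 1, 2 were higher and 1 lower. Of 8 tested genes of type II and shared taste cells 0 were called by edgeR (1 at an unadjusted p under 0.05; 0 by the DESeq2 Wald test and limma voom), and of 4 type III genes 1 was lower (Pkd1l3, a subunit of a channel linked to sour taste, log2 -0.86 ± 0.21). Of 38 cell cycle genes 35 had a fold above 1 and 2 were called higher, Bub1 (log2 0.98 ± 0.20) and E2f1 (log2 0.60 ± 0.17). The share called, 5.3%, stood beside 8.04% of all genes. The median of this list was 0.30, and its calls numbered 13 and 18 when only the 4 clone libraries or the 6 FoP libraries were fitted. Their summed level was 517 and 538 CPM in clone 2.4 and 604 and 665 CPM in clone 2.5. Leaving out any one of the 4 libraries ended the call of Krt5, Ccnd1, Pkd1l3 and E2f1 (adjusted p 0.0555 to 0.305). The block also ended those of Krt5, Ccnd1 and E2f1 (adjusted p 0.0509 to 0.0585), a stricter filter those of Ccnd1 and E2f1 (0.0537 and 0.0525) and limma voom that of E2f1 (0.075). Itga3 lost the call without clone 2.4 duplicate 2 or clone 2.5 duplicate 1 or clone 2.5 duplicate 2 (adjusted p 0.0818 to 0.173). Bub1 lost the call without clone 2.4 duplicate 1 or clone 2.4 duplicate 2 or clone 2.5 duplicate 2 (adjusted p 0.0529 to 0.105).

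Basement membrane and matrix genes moved in both directions. Of 58 tested, 8 were higher and 12 lower in clone 2.5, a share of 34.5% beside 8.04% of all genes, with a median of -0.06. Postn, a matrix protein of connective tissue and of injured epithelium, gave 5938 and 5180 CPM in clone 2.4, 2777 and 2905 CPM in clone 2.5 and 937 and 826 CPM in wild type (log2 -0.97 ± 0.18, adjusted p = 0.0119). Fn1, fibronectin, gave 821 and 1218 CPM and 411 and 444 CPM (log2 -1.25 ± 0.22, adjusted p = 0.0136). Clone 2.4 was high in both, and its duplicates differed more for Fn1 than those of clone 2.5. Vcan, a large proteoglycan, gave 44.7 and 47.8 CPM and 20.4 and 21.3 CPM (log2 -1.15 ± 0.08, adjusted p = 9.66e-07), and Nid1, which links laminin to collagen IV, was lower too (log2 -1.37 ± 0.19). Sparc, a matrix-binding glycoprotein, gave 479 and 486 CPM in clone 2.4 and 656 and 681 CPM in clone 2.5 (log2 0.47 ± 0.10), and Col11a1 was higher as well (log2 1.02 ± 0.15). Beside these, 1 of 8 tested fibroblast markers was higher (Col1a2, at 0.334 to 1.73 CPM) and 2 were lower (Postn and Thy1); their sum was 6029 and 5293 CPM in clone 2.4 and 2874 and 3002 CPM in clone 2.5, almost all of it Postn, and Pdgfra was at 2.53 to 3.95 CPM. The part of fibroblasts in these differences was not tested. Leaving out clone 2.4 duplicate 1 or clone 2.5 duplicate 2 gave 6 matrix genes higher and 8 lower, clone 2.4 duplicate 2 gave 4 and 8, and clone 2.5 duplicate 1 gave 4 and 7. The call was lost with any one library left out for Sparc and Thy1 (adjusted p 0.0541 to 0.252). Postn lost the call without clone 2.4 duplicate 1 or clone 2.5 duplicate 1 or clone 2.5 duplicate 2 (adjusted p 0.0679 to 0.0778). Fn1 lost the call without clone 2.5 duplicate 1 or clone 2.5 duplicate 2 (adjusted p 0.0708 to 0.0753), with only the 4 clone libraries in the fit (0.146; with the duplicate number as a block as well, 0.0749) and with only the 6 FoP libraries (0.0625).

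Genes induced by interferon lay mostly below a fold of 1, with few calls, and antigen presentation genes were called in both directions. Of 37 tested genes induced by interferon, 35 had a fold below 1 and the median was -0.77, but only 3 were called lower: Ifitm1, Oasl1 (log2 -0.86 ± 0.19) and Oas1a (log2 -5.69 ± 0.84). That share, 8.1%, is near the 8.04% of all genes called. Oas1a, at 0.0317 and 0.0347 CPM in clone 2.5, passed the filter only through clone 2.4 and had to be lower. Duplicates of clone 2.4 differed for these genes. Ifit1, a binder of viral RNA, was at 6.90 and 2.16 CPM in clone 2.4 and 0.476 and 0.486 CPM in clone 2.5 (log2 -3.23, adjusted p = 0.218), and Usp18 at 3.26 and 1.10 CPM and 0.111 and 0.156 CPM. Clone 2.4 duplicate 1 was the higher library for both, and without it the median was -0.45 with 2 called. The count was 22 with only the 4 clone libraries in the fit, 24 with the 6 FoP libraries, 31 with no filter, 10 by the DESeq2 Wald test and 3 by limma voom; it was 4 without clone 2.4 duplicate 2 and 2 in the other leave-outs. Of 24 antigen presentation genes 2 were higher and 7 lower (37.5%). B2m, the light chain of class I molecules, gave 330 and 307 CPM in clone 2.4 and 250 and 234 CPM in clone 2.5 (log2 -0.40 ± 0.07), H2-D1 gave log2 -0.37 ± 0.06 and the immunoproteasome subunit Psmb8 log2 -1.20 ± 0.18. The class II genes H2-Ab1 and H2-DMb1 went the other way (log2 0.74 ± 0.16 and 0.71 ± 0.12). Without clone 2.4 duplicate 1, 1 was higher and 2 lower, without its duplicate 2, 1 and 5, without clone 2.5 duplicate 1, 2 and 5, and without clone 2.5 duplicate 2, 1 and 4. Of immune cell markers 4 were tested, and H2-Ab1 and Kit were the 2 called; Ptprc was at 0. Oasl1 lost the call without clone 2.4 duplicate 1 or clone 2.5 duplicate 1 or clone 2.5 duplicate 2 (adjusted p 0.0605 to 0.109). H2-Ab1 lost the call without clone 2.4 duplicate 1 or clone 2.4 duplicate 2 or clone 2.5 duplicate 2 (adjusted p 0.138 to 0.152). Kit lost the call without clone 2.4 duplicate 1 or clone 2.4 duplicate 2 or clone 2.5 duplicate 1 (adjusted p 0.0943 to 0.187). H2-D1 lost the call without clone 2.4 duplicate 1 (adjusted p = 0.0513).

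Some genes of glycolysis and of sterol synthesis were higher in clone 2.5, and how many depended on the libraries fitted. Of 31 genes of glycolysis and hypoxia, 10 were called higher and 0 lower (32.3%), with a median of 0.38. Ldha, which makes lactate, gave 898 and 1081 CPM in clone 2.4 and 1289 and 1474 CPM in clone 2.5, beside 1451 and 1515 CPM in wild type (log2 0.48 ± 0.09, adjusted p = 0.00471). Gapdh gave 929 and 1081 CPM and 1245 and 1365 CPM (log2 0.38, adjusted p = 0.0110). Duplicates spread widely here: the list summed to 10040 and 12830 CPM in clone 2.4 and 13820 and 15900 CPM in clone 2.5. With a library left out, the calls were 2 without clone 2.4 duplicate 1, 17 without its duplicate 2, 9 without clone 2.5 duplicate 1 and 1 without its duplicate 2. The calls numbered 5 and 6 when only the 4 clone or 6 FoP libraries were fitted. Of 34 genes of cholesterol and fatty acid synthesis 7 were higher and 0 lower (20.6%), with a median of 0.34, led by Idi1 (log2 0.98 ± 0.23), Mvd (0.78 ± 0.13) and Msmo1 (0.61 ± 0.14), which are enzymes of the sterol pathway. In the same 4 leave-outs those calls were 1, 2, 9 and 1. Of 87 ribosomal protein genes 3 were higher and 0 lower, a share of 3.4% beside the 3.93% of all genes called higher; 36 and 43 were higher when only the 4 clone or 6 FoP libraries were fitted. Of 88 nuclear genes of the respiratory chain 2 were higher and 2 lower (4.5%). Idi1 and Msmo1 lost the call without clone 2.4 duplicate 1 or clone 2.4 duplicate 2 or clone 2.5 duplicate 2 (adjusted p 0.0755 to 0.179), and Msmo1 also with only the 4 clone libraries (0.061) and with the duplicate number as a block (0.0514). Ldha and Gapdh lost the call without clone 2.4 duplicate 1 or clone 2.5 duplicate 2 (adjusted p 0.0776 to 0.144), and Ldha also with only the 4 clone libraries (0.064).

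Signalling genes held single large differences. The share called was 12% of Wnt genes, 20.8% of FGF and insulin-like growth factor genes and 33.3% of retinoic acid genes, beside 8.04% of all genes. Of 25 Wnt targets and feedback genes 0 were higher and 3 lower, each an inhibitor or modulator of the pathway. Dkk3 gave 46.1 and 42.4 CPM in clone 2.4 and 23.3 and 16.4 CPM in clone 2.5 (log2 -1.16 ± 0.15), Apcdd1 gave 25.9 and 24.4 CPM and 12.7 and 12.9 CPM (log2 -0.97 ± 0.11), and Dkk2 was low (log2 -1.01 ± 0.21). Wild type was near clone 2.5 for Apcdd1, at 12.2 and 10.8 CPM. Of 24 FGF and insulin-like growth factor genes 1 was higher, Igfbp4 at 23.5 and 26.2 CPM against 70.4 and 85.1 CPM (log2 1.65 ± 0.16), and 4 were lower, with Igfbp2 the largest (log2 -1.12 ± 0.21). Both code for binding proteins of insulin-like growth factors. The list did not hold Fgf11, whose larger decrease is given above. Ltbp1, which holds latent TGF-beta in the matrix, gave 173 and 168 CPM in clone 2.4 and 91.7 and 80.8 CPM in clone 2.5 (log2 -0.98 ± 0.07, adjusted p = 1.22e-06). Of 18 retinoic acid genes 5 were higher and 1 lower. Rdh12 and Aldh1a1, enzymes of retinoid metabolism, gave log2 1.83 ± 0.25 and 1.19 ± 0.31, and the binding protein Crabp2 gave log2 -0.52 ± 0.06. Foxf2 and Foxc2, forkhead factors like Foxe1, were lower (log2 -0.88 ± 0.10 and -1.11 ± 0.14) and Foxa1 was higher (log2 0.38 ± 0.07). The 4 lower growth factor genes were 1 without either clone 2.4 duplicate and 0 without either clone 2.5 duplicate, and the 5 higher retinoic acid genes were 2 or 3 in each leave-out. Each of the 4 leave-outs ended the call of Aldh1a1 (adjusted p 0.116 to 0.212), as did the duplicate number as a block (0.0705). Igfbp2 lost the call without clone 2.4 duplicate 2 or clone 2.5 duplicate 1 or clone 2.5 duplicate 2 (adjusted p 0.0688 to 0.0859). Dkk2 lost the call without clone 2.4 duplicate 1 or clone 2.5 duplicate 2 (adjusted p 0.0844 to 0.086). Foxa1 lost the call without clone 2.4 duplicate 2 or clone 2.5 duplicate 1 (adjusted p 0.0577 to 0.0729).

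**Figure D4:**
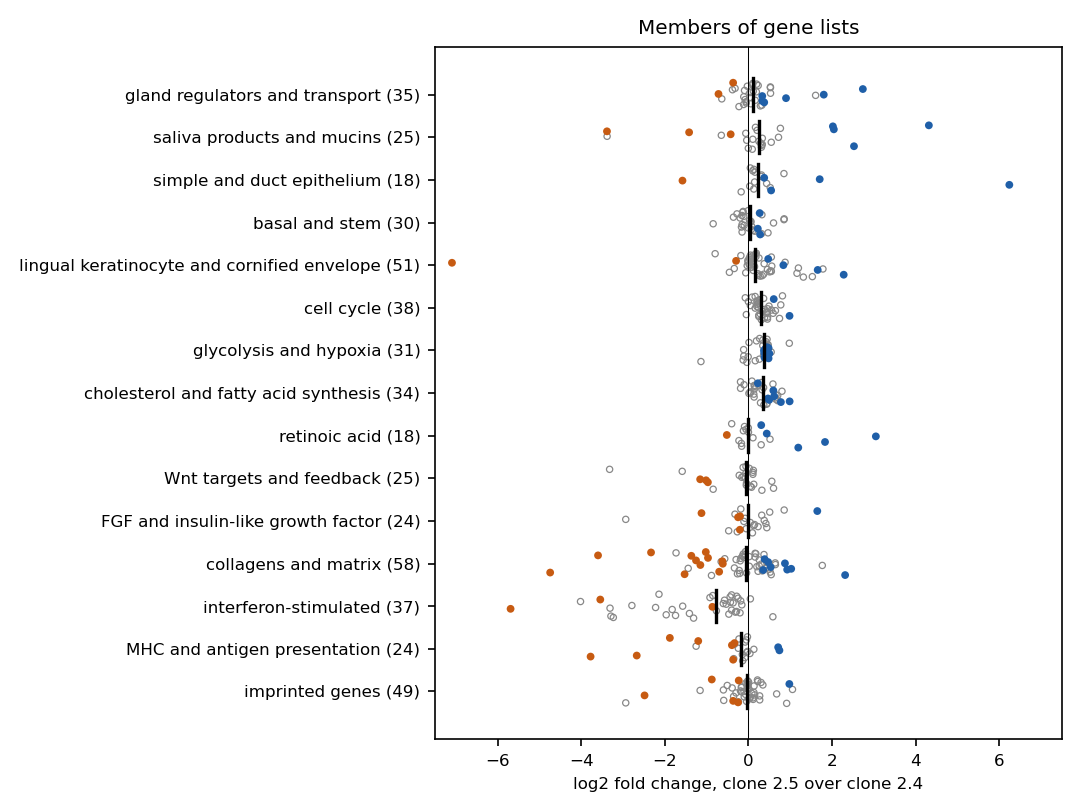
Log2 fold change of clone 2.5 over clone 2.4 (horizontal) for the tested members of 15 gene lists (rows, number of members in brackets); filled points were called, open points were not, and the black bar is the median. Bars lie near 0 apart from the interferon list at -0.77 and, above 0, glycolysis and hypoxia at 0.38 and cholesterol at 0.34.

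Imprinted genes and the X chromosome were looked at because such genes are expressed from only one of their copies in a cell. Of 49 imprinted genes tested 1 was higher and 5 lower, a share of 12.2% beside 8.04% of all genes. Peg3, a zinc finger gene expressed from the paternal copy, gave 10.5 and 7.92 CPM in clone 2.4, 1.76 and 1.53 CPM in clone 2.5 and 7.12 and 6.37 CPM in wild type (log2 -2.49 ± 0.17, adjusted p = 5.43e-07). Clone 2.5 stood below the other cultures of the line. Peg13, a noncoding RNA, gave 28.2 and 30.1 CPM and 57.8 and 56.8 CPM (log2 0.98 ± 0.11), with wild type at 32.4 and 32.7 CPM. Xist, the RNA that coats the inactive X chromosome, was present in both, at 414 and 372 CPM in clone 2.4 and 233 and 194 CPM in clone 2.5 (log2 -0.88 ± 0.12, adjusted p = 0.00239). The 473 tested X-linked genes had a median of 0.03, with 21 higher and 22 lower. That share, 9.09%, is near the 8.04% of all genes called. Of the imprinted genes 2 were lower without clone 2.4 duplicate 1 or clone 2.5 duplicate 1, and 3 without either other library.

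Along the genome the differences were scattered. Chromosome medians of log2 fold change ran from -0.05 for the mitochondrial genome (20 genes) to 0.03 for X, and over the nuclear chromosomes the share of genes called ran from 5.84% on chromosome 19 to 11.2% on chromosome 18, which holds the protocadherins. Of the 20 mitochondrial genes 0 were called by edgeR (2 at an unadjusted p under 0.05; 0 by the DESeq2 Wald test and limma voom), and 3 were lower without clone 2.5 duplicate 1. In 738 windows of 40 neighbouring tested genes the median ran from -0.22 to 0.39. The highest lay on chromosome 3 between 90213695 and 92458720 (GRCm38), with 7 called genes, in the region of S100a8 (log2 2.04 ± 0.44), and the lowest on chromosome 11 between 45946843 and 50827724, with 6. The window with most calls, 26 of 40, lay in the protocadherin cluster. Of the called genes, 127 pairs were next to each other among tested genes and within 100 kb; 69 pairs without overlap and 21 with overlap moved the same way, and 29 and 8 moved in opposite ways. Examples of the first kind are G0s2 with Hsd11b1 and Duox2 with Duoxa2. Tnf (log2 1.05 ± 0.12) and its neighbour Ltb (log2 -2.86 ± 0.46), both cytokine genes, are an example of opposite directions. How many adjacent pairs would arise among called genes by chance was not tested, so these counts are a description. Part of the pairs lie in the protocadherin cluster, where reads may be shared. S100a8 lost the call without clone 2.4 duplicate 1 or clone 2.5 duplicate 1 or clone 2.5 duplicate 2 (adjusted p 0.0586 to 0.121).

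**Figure D5:**
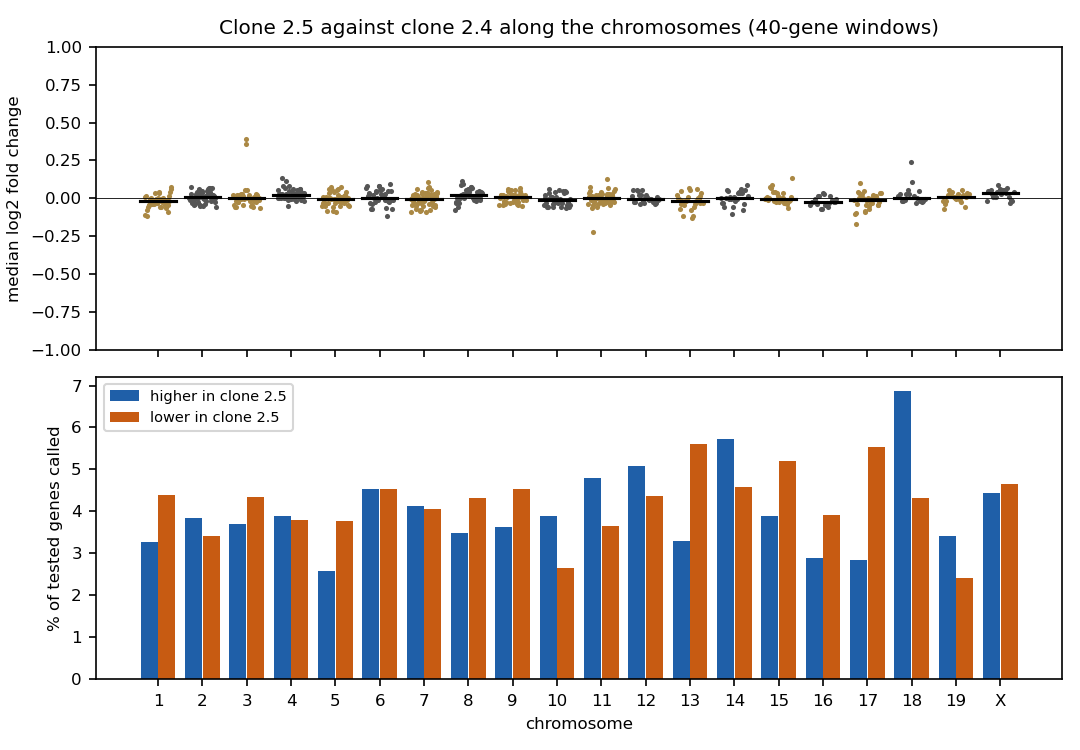
Upper panel: median log2 fold change of clone 2.5 over clone 2.4 in windows of 40 neighbouring tested genes (points) and over each chromosome (bars); lower panel: percent of tested genes called higher or lower on each chromosome. The mitochondrial genome is not drawn. No chromosome median shown leaves the range -0.025 to 0.033, and single windows on chromosomes 3, 11 and 18 lie furthest from 0.

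The other pair of knock-out clones, 2.10 and 2.9 of the CVP line, shares no library with the FoP clones, although all were fitted together. It gave 908 called genes over the same 15691, or 5.79%. Called in both pairs were 303 genes, 24% of the FoP list and 33.4% of the CVP list; over 2-fold they numbered 438, 312 and 102 in both. Clone numbers have no order, so a direction in one pair has no counterpart in the other. Aqp5 differed in both, with 74.3 and 69.8 CPM in clone 2.9 and 243 and 189 CPM in clone 2.10, as did Tmem102, with 6.58 and 6.69 CPM and 16.8 and 17.8 CPM. Galnt6 differed in both as well, from 60.0 and 56.8 CPM in clone 2.9 to 10.1 and 8.49 CPM in clone 2.10. AI429214 had 0 counts in clone 2.9 as in clone 2.4, and Rps4l 0 counts in clone 2.10. Among genes with large FoP differences that were not called in the CVP pair were Col4a6 (213, 228, 207 and 200 CPM; log2 -0.12, adjusted p = 0.733), Trpm6 (log2 0.22, adjusted p = 0.765) and Sorbs3 (log2 -0.27, adjusted p = 0.150). Whether a gene's difference itself differs between the pairs was not tested.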

How the data were processed

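The members and gene lists were chosen with earlier results of these data known. RNA was poly(A)-selected and made into stranded libraries, per the labels' protocols. The values used are raw counts per gene as deposited, made with STAR, featureCounts and the hg38 genome per the submitters' processing notes, with no version given. The deposited symbols are those of mouse, and 96.2% match a gene of GENCODE M21 (GRCm38), from which positions were taken. Use of strand in counting is not stated in what was read here, and values of overlapping genes are uncertain. Samples were taken from column names that match the labels' titles.

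All 12 libraries were fitted in 6 groups with edgeR 4.0.16 (TMM, robust quasi-likelihood, 6 residual degrees of freedom; R 4.3.3), since the 4 clone libraries alone leave 2. P-values were Benjamini-Hochberg adjusted over the 15691 genes, threshold 0.05. The fit was tested on simulated counts. Standard errors are approximate, from dividing a fold change by the square root of its F statistic. Genes named are Foxe1, the 12 per direction with the largest called change at a mean log2 CPM of 2 or more, the 6 per direction of highest CPM with at most 3 counts in one clone, and up to 5 called genes per list (43 lists); others are named as neighbours, as markers, as list members beside these, or after their values were seen. Alternatives were DESeq2 1.42.0 (size factors, Wald test), limma 3.58.1 voom, other filters, fewer libraries, a duplicate block, a 2-fold test, halved counts (low counts of 2 and 4 were over-represented) and each library left out.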

Additional observations from a re-analysis of the deposited data

How the results depend on the processing

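The count of 1262 genes between the clones was 1259 with DESeq2 size factors, 1166 with a stricter filter, 1610 by the DESeq2 Wald test, 1179 by limma voom and 1279 with halved counts; 1259 and 1102 of the 1262 were called again by the DESeq2 and limma tests. It moved to 2113 with no filter, to 2060 with only the 6 FoP libraries and to 119 (68 higher, 51 lower) when tested against a 2-fold change, and to 513 to 667 with one library left out. The 2-fold test gave 395 genes for clone 2.4 and 291 for clone 2.5 against wild type and 96 for clone 2.10 against 2.9, which no filter raised to 1745; with one library left out, clone 2.4 against wild type gave 3577 to 5309. With fewer libraries in a clone each call rests on less replication; the cause of the other moves was not tested.

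Duplicate numbers were not taken as pairs, since the labels give no shared batch. Deviations of same-numbered libraries correlated at 0.229 for clones 2.4 and 2.5 and at 0.359 for clones 2.9 and 2.10, over 12441 genes. Other pairings of cultures gave -0.174 to 0.128. With the duplicate number as a replicate block the count was 1176, of which 1128 were called without it, and 11 of 141 named genes lost their call. That block fits 1 shift for all 6 groups, so it cannot take out a shift shared only by clones 2.4 and 2.5. In a fit of the 4 clone libraries alone, chosen after seeing the data, the block left 1 residual degree of freedom and gave 3334. Without a block the same 4 libraries gave 1756.

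None of the 141 named genes changed direction in any alternative, and 72 kept their call in all 16 alternatives other than the 2-fold test, as did 23 of the 24 genes with the largest changes (the exception was Krt13). The 2-fold test ended the call of 101 of the 141, and leaving out a library that of 43 to 60. Direction could hardly change, since each called gene had both libraries of one clone beyond both of the other and every alternative used the same counts. That it held is therefore no further support. Counted over lists and alternatives together, 678 values of a list median stayed within the spread between replicates and 33 moved. These values are refits of the same lists and are not independent. Chromosome medians lay between -0.17 and 0.12 in every setting. Depth limits the genes with a few counts per library, whose fold changes have wide counting intervals.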

Other observations

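Further lists held single differences between the clones. Of 47 ephrins, semaphorins and other guidance genes 7 were higher and 2 lower in clone 2.5 (edgeR, as above), a share of 19.1% beside 8.04% of all genes. Sema6a, a membrane semaphorin, gave 3.18 and 3.77 CPM in clone 2.4 and 6.58 and 7.28 CPM in clone 2.5, and Ephb2, an ephrin receptor, gave 4.11 and 5.85 CPM and 8.58 and 9.03 CPM. Both were higher in clone 2.5 (log2 1.00 ± 0.17 and 0.82 ± 0.14). With a library left out the guidance list had 3 higher and 0 lower (clone 2.4 duplicate 1), 4 and 1 (its duplicate 2), 5 and 1 (clone 2.5 duplicate 1) and 4 and 0 (its duplicate 2).

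Among 27 patterning factors, Prrx1, a homeobox gene known from mesenchyme, gave 3.21 and 3.41 CPM in clone 2.4, 10.4 and 11.3 CPM in clone 2.5 and 19.1 and 21.9 CPM in wild type (log2 1.71 ± 0.19, adjusted p = 0.000155). Irx1, an Iroquois homeobox gene, gave 59.8 and 59.8 CPM in clone 2.4 and 82.7 and 90.6 CPM in clone 2.5, both above wild type at 45.2 and 43.3 CPM (log2 0.54 ± 0.06, adjusted p = 0.000129). Of 47 xenobiotic and redox enzymes 5 were higher and 2 lower (14.9%). Cbr2, a carbonyl reductase, gave 577 and 510 CPM in clone 2.4 and 919 and 847 CPM in clone 2.5, and 1661 and 1716 CPM in wild type (log2 0.70 ± 0.08, adjusted p = 5.22e-05). Ces2g, a carboxylesterase, was lower (log2 -0.62 ± 0.10). The enzyme list had 3 higher and 1 lower without either clone 2.4 duplicate, 2 and 3 without clone 2.5 duplicate 1 and 3 and 2 without its duplicate 2.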
